A study of Mus musculus with 9 samples.

Results

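Cacna2d3 and Lrtm1 are 2 mouse genes that share a locus on chromosome 14, with Lrtm1 lying wholly inside Cacna2d3. They are 2 of the 16698 genes kept from a table of left-ventricle RNA levels, and both were among the 13712 genes that passed the filter on low values and were tested. They were picked by symbol because both were already known to differ between the banded groups of these same libraries, so that difference is given as a description, with no test. The question put to the libraries was whether the 2 genes move together from one library to the next.

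The study measured gene expression by RNA sequencing in hearts of neonatal ICR/CD1 mice, an outbred strain, after transverse aortic constriction (TAC), a surgical narrowing of the aorta that loads the left ventricle. It compared banding at an age at which the mouse heart still regenerates with banding at an age at which it no longer does. Day-1 TAC mice were banded on postnatal day 1, day-7 TAC mice on postnatal day 7, and sham mice had the control procedure, on a day that the labels do not give. RNA came from the left ventricle on postnatal day 14 in every group, with 3 libraries a group and 9 in all, so the time since surgery differs between the TAC groups. No transgene or drug is listed. The labels do not say whether each library is a separate animal, and any p-value here refers to spread among libraries, which may be technical.

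Cacna2d3 encodes an alpha2delta subunit of voltage-gated calcium channels. These subunits sit on the outer face of the cell membrane beside the pore, help carry channels to the surface and set how much current they pass; other subunits of the complex are the beta subunits inside the cell, which bind the pore directly, and the gamma subunits, which span the membrane. In heart muscle the L-type channel built on Cacna1c admits the calcium that triggers contraction, with Cacna2d1 as the best-known alpha2delta partner, whereas Cacna2d3 is known mainly from neurons. Lrtm1 encodes a membrane-spanning protein with leucine-rich repeats, a fold that many proteins use to bind other proteins.

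In the GENCODE mouse annotation of GRCm38 (mm10), Cacna2d3 (ENSMUSG00000021991.9) lies at chr14:28904943-29721864 on the minus strand and spans 816922 bases, of which 8720 are exonic in any of its 9 transcripts. Lrtm1 (ENSMUSG00000045776.3) lies at chr14:29018208-29033645 on the plus strand and spans 15438 bases, of which 7939 are exonic. Lrtm1 sits in intron 27 of transcript Cacna2d3-201, which has 38 exons, and the intron runs from base 28982374 to 29043500. The genes share 0 exonic bases, the nearest Cacna2d3 exon is 9.86 kb from Lrtm1, and the start sites are 704 kb apart. The unspliced Cacna2d3 transcript crosses the Lrtm1 exons on the opposite strand, and whether the authors' counting used strand is not given in the sources used here. If strand was not used, reads from that transcript over the Lrtm1 exons would be counted as Lrtm1 reads. Whether reads of either gene were counted for the other cannot be checked from the deposited values.

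The 250 bases upstream of each start site are shown, since the 2 genes are read from opposite strands and start 704 kb apart. The Lrtm1 window itself lies in intron 27 of Cacna2d3-201. They come from RefSeq (GRCm38.p6), in which both symbols were found, and are printed 5′ to 3′ on the strand of each gene with every CpG in capitals. The window of Cacna2d3 is chr14:29721865-29722114 on the minus strand, and that of Lrtm1 is chr14:29017958-29018207 on the plus strand.
Cacna2d3: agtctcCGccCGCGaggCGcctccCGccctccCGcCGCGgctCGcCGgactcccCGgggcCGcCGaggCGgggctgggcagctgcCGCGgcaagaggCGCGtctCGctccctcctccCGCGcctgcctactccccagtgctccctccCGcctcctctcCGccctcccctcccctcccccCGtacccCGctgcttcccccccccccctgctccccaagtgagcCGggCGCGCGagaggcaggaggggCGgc
Lrtm1: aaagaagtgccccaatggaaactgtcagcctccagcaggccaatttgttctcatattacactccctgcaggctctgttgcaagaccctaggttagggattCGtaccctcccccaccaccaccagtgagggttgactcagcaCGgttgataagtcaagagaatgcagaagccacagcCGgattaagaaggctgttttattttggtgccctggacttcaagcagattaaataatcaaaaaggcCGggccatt

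The Cacna2d3 window holds 30 CpG dinucleotides and is 80.0% G and C, and 94.4% of the 27025 mouse promoter windows of that length hold fewer CpG. The Lrtm1 window holds 4 CpG dinucleotides and is 49.2% G and C, against a median of 6 CpG and 52.0% over all windows. The E-box letters CANNTG, present in 66.0% of windows on either strand, occurred at 172 and 37 bases before the start of Cacna2d3 and 0 times before Lrtm1. The NKX2-type letters AAGTG, present in 40.8% of windows, occurred once in each window, at 36 bases before the start of Cacna2d3, where they overlap the nearer E-box, and at 246 bases before the start of Lrtm1. The GATA letters AGATAA, present in 10.3% of windows, were found in neither window. The same held for the M-CAT letters CATTCC (12.6% of windows) and for the ERR letters AAGGTCA (4.05%). It also held for the TATA box letters TATAAA (13.0%) and for the MEF2 motif (3.01%). For GATA only the form AGATAA was searched for, and the letters TGATAA, another form, do stand in the Lrtm1 window. A match is a description of the letters only.

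The libraries held between 18535202 and 26521005 reads over the genes of the table, recovered from the deposited values as described with the processing. The ventricular cardiomyocyte markers fitted the labelled tissue, with 10 of 10 tested and Myl2, the ventricular myosin light chain, at 292215 to 364527 reads. Atrial markers were present too, with 12 of 13 tested: the atrial light chains Myl7 and Myl4 had 492 to 2271 and 1122 to 5055 reads, Sln, a regulator of the calcium pump, had 55 to 435, and Bmp10, an atrial growth factor, had 1 to 16. Day-1 TAC replicate 3 stood apart in the sex-linked genes, with 10532 reads of Xist and 18 of Ddx3y, against 7 to 40 and 3312 to 4706 in the other libraries. Day-7 TAC replicate 1 stood apart from its group in 3 atrial markers, with log2 levels of 6.57 for Myl7, 7.57 for Myl4 and 4.18 for Sln, against 4.68 and 4.76, 5.87 and 5.90, and 1.52 and 2.08 in the other day-7 TAC libraries. Day-1 TAC replicate 2 was the highest of its group in the same markers, at 6.78, 7.96 and 4.11. The others of its group had 5.69 and 6.16, 7.19 and 7.29, and 3.03 and 3.25. The main results of the pair are also given without day-1 TAC replicate 3 and without day-7 TAC replicate 1.

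Cacna2d3 was highest in every day-1 TAC library, lowest in every day-7 TAC library and intermediate in every sham library. On the deposited scale, log2 of TMM-scaled CPM (read counts scaled to library size), it stood at 3.62, 4.22 and 4.25 in day-1 TAC libraries 1 to 3, at 1.37, 1.54 and 1.98 in day-7 TAC libraries and at 3.29, 2.63 and 2.87 in sham libraries. The 3 groups did not overlap. These levels rest on 259, 378 and 367 reads in day-1 TAC, 62, 56 and 83 reads in day-7 TAC and 196, 158 and 140 reads in sham. Counting alone gives a log2 SD of 0.158 to 0.193 in the day-7 TAC libraries. In bulk tissue, fewer cells of a type and less RNA per cell cannot be told apart.

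Lrtm1 was ordered in the same way, at a much higher level. It stood at 8.08, 8.65 and 8.74 in day-1 TAC libraries 1 to 3, at 5.36, 5.98 and 6.47 in day-7 TAC libraries and at 7.64, 7.00 and 7.26 in sham libraries, on the same log2 scale. Its groups did not overlap either. The reads were 5673, 8158 and 8254 in day-1 TAC, 984, 1209 and 1868 in day-7 TAC and 3995, 3266 and 2953 in sham, which bring the counting SD down to 0.016 to 0.046. Within each group, the libraries ranked in the same order for Cacna2d3 and for Lrtm1, as the plot of levels by library shows. Part of that order is within counting error. For Cacna2d3, day-1 TAC replicates 2 and 3, and day-7 TAC replicates 1 and 2, differed by less than their counting SD.

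**Figure D1:**
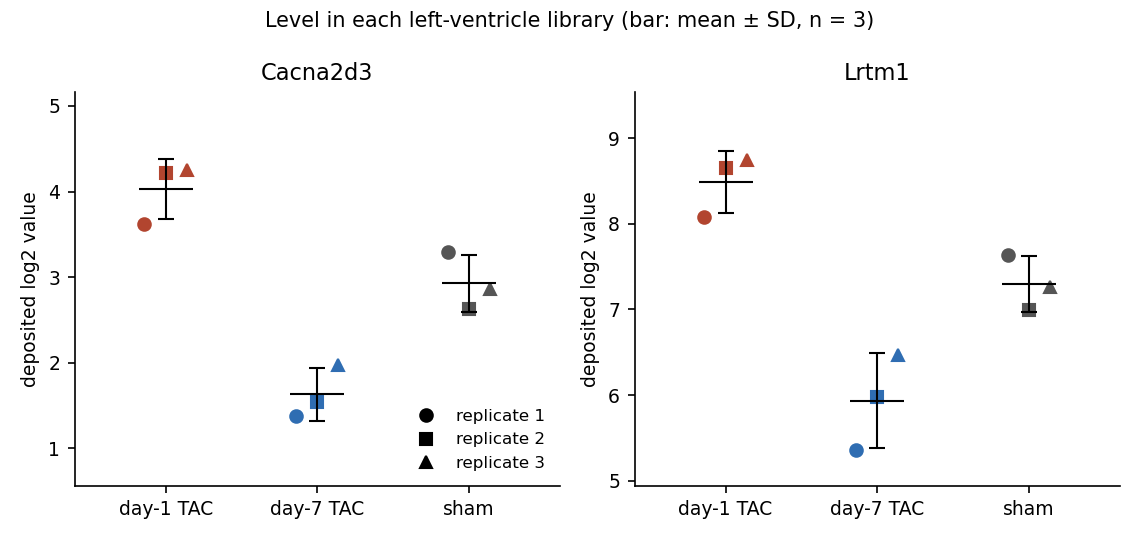
Deposited log2 value (log2 of TMM-scaled CPM) of Cacna2d3 (left) and Lrtm1 (right) in each left-ventricle library, by group; symbols mark replicates, and bars give the mean ± SD of 3 libraries. Both genes lie highest in day-1 TAC and lowest in day-7 TAC with sham between, without overlap, and the symbols keep 1 order within each group for both genes.

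Cacna2d3 averaged 4.03 ± 0.35 in day-1 TAC, 1.63 ± 0.31 in day-7 TAC and 2.93 ± 0.34 in sham (log2 level, SD, n = 3 each). Its log2 difference was 1.10 (SE 0.23) for day-1 TAC minus sham, a 2.15-fold higher level, and -1.30 (SE 0.23) for day-7 TAC minus sham, a 2.46-fold lower one. Lrtm1 averaged 8.49 ± 0.36 in day-1 TAC, 5.94 ± 0.56 in day-7 TAC and 7.30 ± 0.32 in sham (log2 level, SD, n = 3 each). Its log2 differences were 1.19 (SE 0.27), a 2.28-fold higher level, for day-1 TAC minus sham and -1.36 (SE 0.27), a 2.58-fold lower one, for day-7 TAC minus sham. Both differences of a gene share the sham libraries. Without day-1 TAC replicate 3, day-1 TAC minus sham was 0.99 for Cacna2d3 and 1.06 for Lrtm1. Without day-7 TAC replicate 1, day-7 TAC minus sham was -1.17 for Cacna2d3 and -1.08 for Lrtm1.

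Between the TAC groups the log2 difference, day-1 TAC minus day-7 TAC, was 2.40 (SE 0.23) for Cacna2d3, which is 5.28-fold, and 2.55 (SE 0.27) for Lrtm1, which is 5.87-fold. Over all tested genes these were the differences ranked 13 and 11 from the top, in a contrast in which 16.7% of tested genes passed an adjusted p of 0.05 and in which the groups of 38.9% did not overlap. Nothing is read from those shares, because the genes were chosen on this contrast. Without day-1 TAC replicate 3 the log2 differences were 2.29 and 2.43, for Cacna2d3 and Lrtm1 in that order, and over the 9 fits that left out 1 library the lowest value rounded to 2.27 for each gene.

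Expressed as RPKM (reads per kb of exon, scaled to library size), so that the genes can be compared by length, Cacna2d3 averaged 1.97 ± 0.434 in day-1 TAC, 0.363 ± 0.0855 in day-7 TAC and 0.855 ± 0.194 in sham (SD, n = 3 each). Lrtm1 averaged 47.7 ± 10.8 in day-1 TAC, 8.14 ± 3.10 in day-7 TAC and 19.4 ± 4.19 in sham (RPKM, SD, n = 3 each). The nested gene was far above its host at this length-corrected level, by 17.4 to 24.7 times in the 9 libraries.

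The comparison that is independent of the choice of genes sets the mean of both TAC groups against sham. Neither gene passed the test in it. The difference was -0.10 (SE 0.20, 95% interval -0.54 to 0.35) for Cacna2d3, with an adjusted p of 0.738 by limma with Benjamini-Hochberg adjustment over all tested genes. For Lrtm1 it was -0.09 (SE 0.23, 95% interval -0.60 to 0.43), with an adjusted p of 0.797. In the same comparison 36.3% of tested genes were called, 16.0% higher and 20.2% lower in TAC. Leaving out 1 library at a time gave adjusted p-values of 0.454 to 0.986 for Cacna2d3 and 0.436 to 0.965 for Lrtm1. The differences were -0.15 for each gene without day-1 TAC replicate 3, and -0.03 for Cacna2d3 and 0.06 for Lrtm1 without day-7 TAC replicate 1.

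A pattern with all day-1 TAC libraries above all sham libraries and all day-7 TAC libraries below them held for 79 of the tested genes, 0.576%. The pair is included. The pattern requires the TAC groups to stand apart, the difference on which the pair was chosen, so nothing about the pair is read from that share. The reverse pattern held for 155 genes, 1.13%. In day-1 TAC against sham, 34.8% of tested genes were called and the groups of 48.0% did not overlap. In day-7 TAC against sham, 28.9% were called, 13.8% higher and 15.1% lower, and the groups of 46.7% did not overlap. The pair's own values in these contrasts stand above with no test, since they share TAC libraries with the contrast that chose it.

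The ratio of Lrtm1 to Cacna2d3 lay in a narrow range in 8 of the 9 libraries. The log2 ratio of the deposited levels was 4.45, 4.43 and 4.49 in day-1 TAC libraries 1 to 3, 3.99, 4.43 and 4.49 in day-7 TAC libraries and 4.35, 4.37 and 4.40 in sham libraries. Day-7 TAC replicate 1, where Cacna2d3 had 62 reads, was the low one, with 15.9 times as much Lrtm1 as Cacna2d3, and the other libraries lay between 20.4 and 22.5 times. The counting SD of its log2 ratio is 0.189, and that of all 9 libraries runs from 0.076 to 0.197. The SD among libraries was 0.030 in day-1 TAC and 0.025 in sham, below that range. The narrowness is therefore no measure of precision. Cacna2d3 reads amounted to 4.44% to 6.30% of Lrtm1 reads. Any reads counted for the wrong gene of the pair, and their part in the ratio and in the correlation below, were not tested.

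The log2 ratio averaged 4.38 ± 0.19 in the TAC libraries (SD, n = 6) and 4.37 ± 0.02 in the sham libraries (SD, n = 3). The difference of 0.0090 gave p = 0.976 in a two-sided exact permutation test over 84 arrangements, the smallest p of which is 0.0119. Day-7 TAC replicate 1 decides this value. Without it the TAC libraries were higher by 0.0876, with p = 0.0179 in the exact permutation test. A difference of that size lies within the range of the counting SD of single libraries, 0.076 to 0.197. Myl7, Myl4 and Sln stood above the rest of the group in day-7 TAC replicate 1. The same held for day-1 TAC replicate 2, whose log2 ratio was 4.43. The part of these markers in the ratio was not tested. Without day-1 TAC replicate 3 the difference was -0.0130, with an exact permutation p of 1.

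The 2 genes moved together from library to library also after the group means were removed. The deviations of Lrtm1 and Cacna2d3 from their group means had a Pearson r of 0.939 and a Spearman rho of 0.917 over 9 libraries. Both gave p = 0.0046 in a two-sided exact test that permuted libraries within groups, the smallest that this permutation can give, and 0.0046 after Benjamini-Hochberg adjustment over the 2 coefficients. Without sham replicate 1 and day-7 TAC replicate 3, the libraries farthest from the median Cacna2d3 deviation, r was 0.898, with p = 0.0417 in the exact permutation test over 24 arrangements (n = 7). Without day-1 TAC replicate 3 it was 0.933, with an exact permutation p of 0.0278, and without day-7 TAC replicate 1 it was 0.996, with an exact permutation p of 0.0139.

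The deviations had an SD of 0.334 for Cacna2d3 and 0.426 for Lrtm1 (log2), and the deviations of their ratio an SD of 0.161. Most of what set libraries of 1 group apart for one gene was also seen for the other. The plot of the pair shows this as points close to the line of constant ratio, with day-7 TAC replicate 1 below it.

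**Figure D2:**
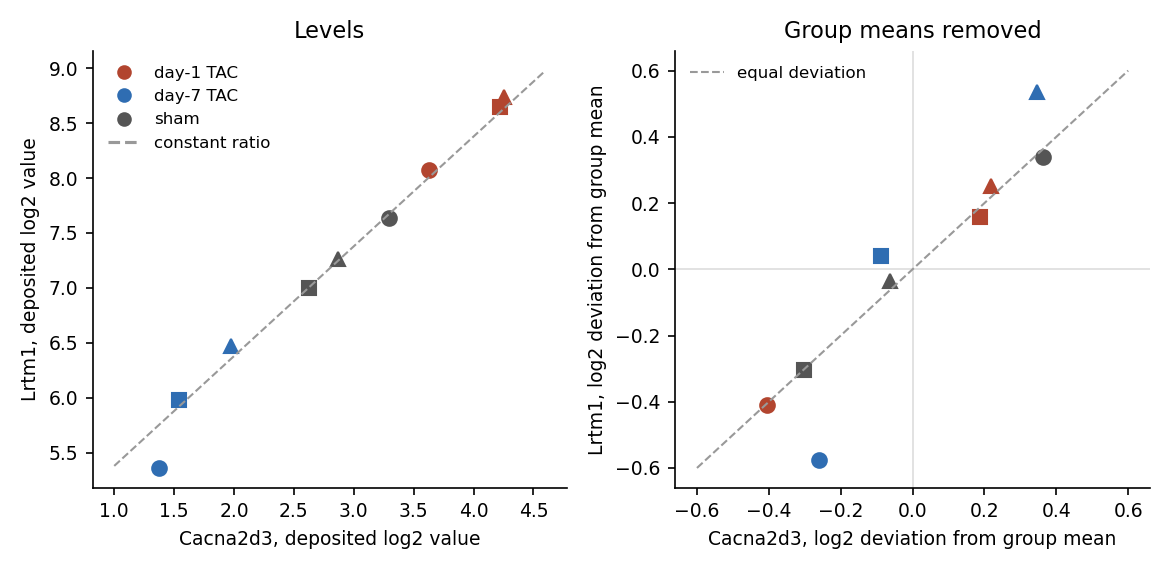
Lrtm1 against Cacna2d3 in the 9 libraries, as deposited log2 values (left) and as log2 deviations from the group mean (right); colours give the group, symbols the replicate, and dashed lines a constant ratio and equal deviation. The points follow the dashed lines, with r = 0.939 for the deviations, and day-7 TAC replicate 1 lies farthest below.

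Over all 9 libraries, group differences included, the Pearson r of the pair was 0.994, as a description and with no test since the groups stand apart. Among the other 13711 tested genes, Lrtm1 had the highest r with Cacna2d3 and Cacna2d3 the highest with Lrtm1. That r includes the difference between the TAC groups on which both genes were chosen. For the deviations from the group means alone, Lrtm1 ranked 9 among all genes by r with Cacna2d3, and Cacna2d3 ranked 13 with Lrtm1. Genes elsewhere in the genome followed Cacna2d3 within groups more closely than Lrtm1 did, and Prom1, with an r of 0.987, was the closest.

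The other genes closest to Cacna2d3 over the 9 libraries, among those with a mean log2 level of at least 2, were Ckmt2 (r = 0.99), Tmtc2 (r = 0.97), Mrpl42 (r = 0.97) and Dmpk (r = 0.97). Ckmt2 encodes the creatine kinase of muscle mitochondria, and it averaged 10.60 ± 0.10 in day-1 TAC, 9.52 ± 0.06 in day-7 TAC and 10.12 ± 0.08 in sham (log2 level, SD, n = 3 each). Mrpl42 encodes a protein of the mitochondrial ribosome and Dmpk a muscle protein kinase mutated in myotonic dystrophy. Lrtm1 had Ntpcr (r = 0.98), Ckmt2 (r = 0.98), Mrpl42 (r = 0.98) and Dmpk (r = 0.97) closest after its host. None of these lies on chromosome 14.

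The genes that ran most against the pair were Zbtb21, Scaf8, Nudcd3, Pdpk1 and Virma for Cacna2d3, with r between -0.98 and -0.97. For Lrtm1 they were Nudcd3, Scaf8, Ecd, Zbtb21 and Dusp27, with r between -0.99 and -0.97. Pdpk1, a kinase that activates Akt, averaged 6.15 ± 0.05 in day-1 TAC, 6.73 ± 0.06 in day-7 TAC and 6.51 ± 0.10 in sham (log2 level, SD, n = 3 each). Genes listed for their likeness across the same 9 libraries share the group differences that chose the pair.

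The tested neighbours at the locus had log2 differences, day-1 TAC minus day-7 TAC, of -0.61 to 0.43. Of 37 annotated genes within 1 Mb of the ends of Cacna2d3, 12 were in the table and 10 were tested, and their r with Cacna2d3 over the 9 libraries ran from -0.91 to 0.64, with a median of -0.17. Between day-1 TAC and day-7 TAC 0 of the 10 were higher and 2 were lower, by limma with Benjamini-Hochberg adjustment. The lower ones were Cacna1d, a pore subunit gene, with a log2 difference of -0.61 (adjusted p = 0.0212), and Dcp1a, an mRNA decapping factor, at -0.32 (adjusted p = 0.0196). Over all tested genes 6.42% were higher and 10.3% lower in this contrast, so with 10 genes nothing is read from these counts.

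Against sham, Prkcd, a protein kinase C, was higher in day-1 TAC by 0.75 on the log2 scale (adjusted p = 0.00223), and Actr8, a chromatin remodelling subunit, was lower, with a difference of -0.33 (adjusted p = 0.0333). In day-7 TAC minus sham, Wnt5a, a secreted Wnt ligand that lies next beyond the end of Cacna2d3, had a difference of -0.88 (adjusted p = 0.00377) and Dcp1a one of 0.25 (adjusted p = 0.0322). For the TAC mean minus sham, Prkcd (0.55, adjusted p = 0.00471) and Wnt5a (-0.66, adjusted p = 0.00542) were called. These p-values are limma's, over all tested genes. Erc2, Selenok, Tkt and Sfmbt1 passed in none of the 4 contrasts. Il17rb, with 3 to 13 reads, and Chdh, with 4 to 9, were not tested. The calls of Actr8 and Dcp1a, and that of Cacna1d, were lost in 3 to 5 of the 9 fits that left out 1 library.

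**Figure D3:**
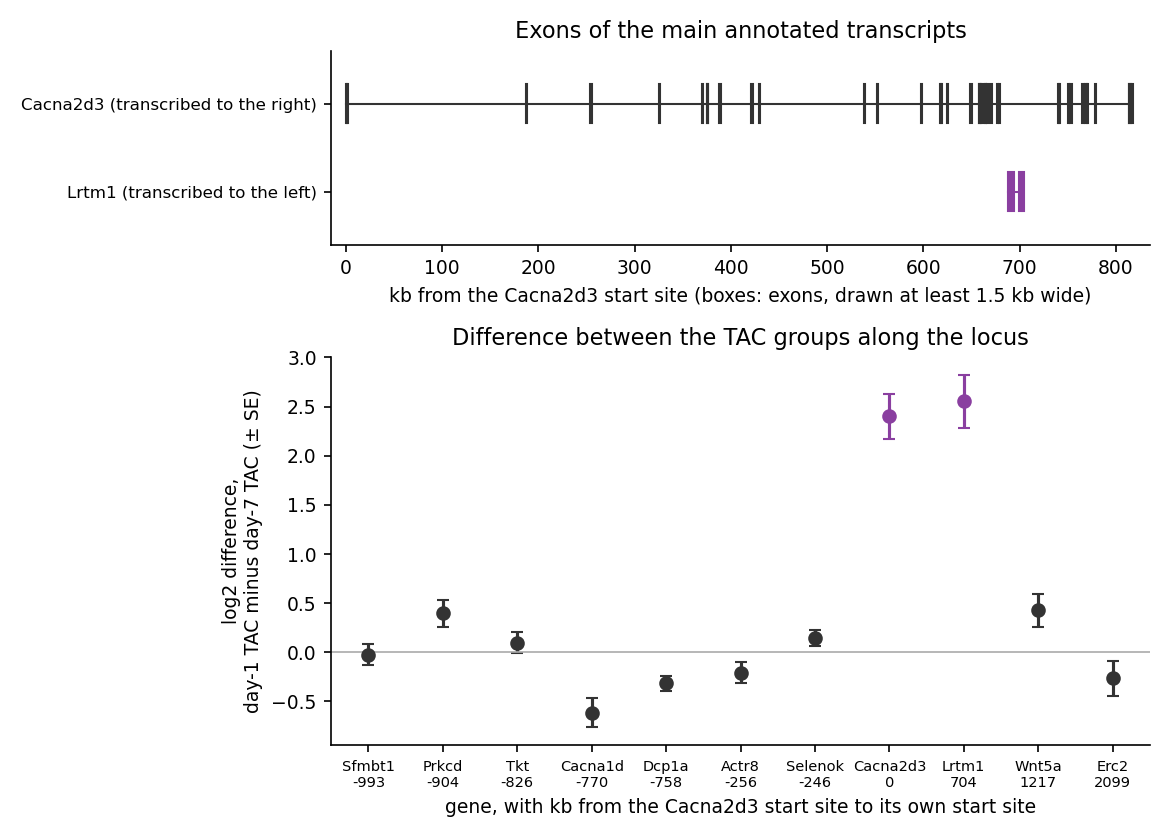
Exons of the main annotated transcripts of Cacna2d3 and Lrtm1 by distance from the Cacna2d3 start site in kb (top), and the log2 difference, day-1 TAC minus day-7 TAC ± SE, of the pair and 9 tested genes within 1 Mb of Cacna2d3 (bottom), with the distance of its start site in kb. The pair stands at 2.40 and 2.55, and the neighbours lie between -0.61 and 0.43.

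Among nested gene pairs, Cacna2d3 and Lrtm1 had the highest correlation over the 9 libraries with group differences included, but not with group means removed. The annotation holds 426 pairs of tested genes with one inside the other, of which 212 lie on opposite strands without shared exonic bases. Some hosts recur many times among the 212, such as Gm20388, Gm26904 and Fgfr2, so the pairs are not independent. Whether the nested gene lies within a single intron, as Lrtm1 does, was not checked for the other pairs. The median r over the 9 libraries was 0.387 for all pairs and 0.337 for the 212, and 27 pairs, or 6.34%, and 8 of the 212, or 3.77%, were over 0.9. A total of 0 of the 426 pairs had a higher r than Cacna2d3 and Lrtm1, which is a place by description and not a test. That r includes the difference between the TAC groups on which both genes were chosen, so a high place was favoured in advance. For the deviations from group means, 6 of the 426 and 1 of the 212 had a higher r.

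Both genes differed by at least 1 log2 unit between the TAC groups in 8 of the 426 pairs and in 3 of the 212. The other 2 of the 3 were Gm17106 with Rpl35a and Prkag2 with 1500035N22Rik, and the differences of all 4 genes were negative. Other nested pairs with high r and no shared exonic bases included Gm16156 with Psmb10 (0.97), the highest after the pair. Cog5 with Gpr22 (0.96), Epo with Gigyf1 (0.94) and Fgfr2 with Tacc2 (0.91) were also among them. Pairs whose exons overlap, such as Cep85l with Pln (0.96) and Syn3 with Timp3 (0.94), may share reads where strand is not used. Cacna2d4 and Lrtm2 are paralogs on chromosome 6 with the same nested arrangement. Of these 2 genes 0 were among the genes kept from the table, so that pair could not be analysed.

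**Figure D4:**
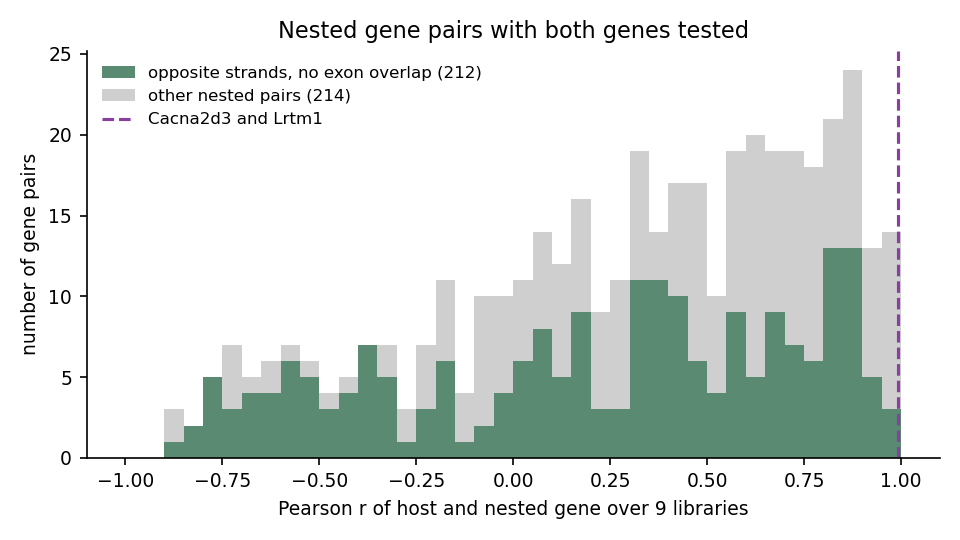
Number of nested gene pairs by the Pearson r of host and nested gene over the 9 libraries, stacked for 212 pairs on opposite strands without exon overlap and for the other 214; the dashed line marks Cacna2d3 and Lrtm1. The r values, group differences included, spread widely about a median of 0.387, and the dashed line at 0.994 lies at the far right.

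Of the other alpha2delta subunits 3 were listed, 2 were in the table and both were tested. Cacna2d1 stood at 8.27 ± 0.10 in day-1 TAC, 7.66 ± 0.12 in day-7 TAC and 8.06 ± 0.15 in sham (log2 level, SD, n = 3 each). It was lower in day-7 TAC than in sham, with a log2 difference of -0.40 (adjusted p = 0.0116 by limma), and higher in day-1 TAC than in day-7 TAC, by 0.61 (adjusted p = 0.00388). Its difference of 0.21 between day-1 TAC and sham did not pass (adjusted p = 0.11). Cacna2d2 passed in no contrast, with -0.29 for day-1 TAC minus sham (95% interval -0.96 to 0.38) and -0.25 for day-7 TAC minus sham.

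Of 10 pore subunit genes 9 were in the table and 7 were tested. In day-1 TAC 0 were higher and 3 lower than in sham, against 14.3% higher and 20.5% lower of all genes tested. Cacna1c, the pore of the cardiac L-type channel, had a difference of -0.59 (adjusted p = 0.0344), and the T-type pores Cacna1g and Cacna1h had -0.95 (adjusted p = 0.00521) and -1.10 (adjusted p = 0.0341), all by limma. In day-7 TAC minus sham 0 of the 7 passed in either direction, where 28.9% of all genes did, with -0.23 for Cacna1c. The median log2 difference of the 7 in day-1 TAC minus sham was -0.38, against -0.04 over all tested genes. Between the TAC groups Cacna1s, the pore of skeletal muscle, was higher in day-1 TAC by 1.02 (adjusted p = 0.0339), at 13 to 48 reads, and Cacna1d was lower, as given above. The calls of Cacna1c, Cacna1h and Cacna1s were lost in 2, 4 and 4 of the 9 fits that left out 1 library, with adjusted p-values of up to 0.113, 0.127 and 0.106. That of Cacna1c was also lost with quantile normalisation, with no intensity trend and in a fit of only the 2 groups.

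All 4 beta subunit genes passed in day-1 TAC against sham, 2 in each direction, where 14.3% of all tested genes were higher and 20.5% lower. Cacnb1 and Cacnb3 were higher by 0.75 (adjusted p = 0.00113) and 0.71 (adjusted p = 0.00795). Cacnb2, the main cardiac form, and Cacnb4 were lower, with differences of -0.69 (adjusted p = 0.00646) and -0.53 (adjusted p = 0.0412) by limma. The direction of these genes in day-7 TAC minus sham was the same, at 0.41 for Cacnb1, 0.32 for Cacnb3, -0.51 for Cacnb2 and -0.57 for Cacnb4, of which Cacnb3 did not pass, in a contrast with 28.9% of all tested genes called. Between the TAC groups 0 of 4 passed, against 16.7% of all tested genes. The call of Cacnb4 in day-1 TAC was lost in 7 of the 9 fits that left out 1 library, with no filter, with TMM factors computed again and in a fit of only the 2 groups (adjusted p of up to 0.15). Those of Cacnb1, Cacnb2 and Cacnb4 in day-7 TAC were lost in 3 to 5 of them.

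Of 8 gamma subunit genes 4 were in the table and only Cacng7 had enough reads to be tested. It rose by 1.61 in day-1 TAC against sham (adjusted p = 9.2e-05 by limma). In day-7 TAC minus sham it had 0.29 (adjusted p = 0.144), and between the TAC groups it was higher in day-1 TAC by 1.32 (adjusted p = 0.000694). Its levels were 3.02 ± 0.09 in day-1 TAC, 1.70 ± 0.08 in day-7 TAC and 1.41 ± 0.13 in sham (log2, SD, n = 3 each), so that, unlike the pair, its day-7 TAC mean lay above sham. Of the RGK proteins, small GTPases that inhibit these channels, Rrad rose by 0.45 in day-1 TAC against sham (adjusted p = 0.0022) and was 0.29 higher in day-1 TAC than in day-7 TAC (adjusted p = 0.0329). The Rrad call between the TAC groups was lost in 5 of the 9 fits that left out 1 library and with no intensity trend (adjusted p of up to 0.11). Gem and Rem1 passed in no contrast.

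**Figure D5:**
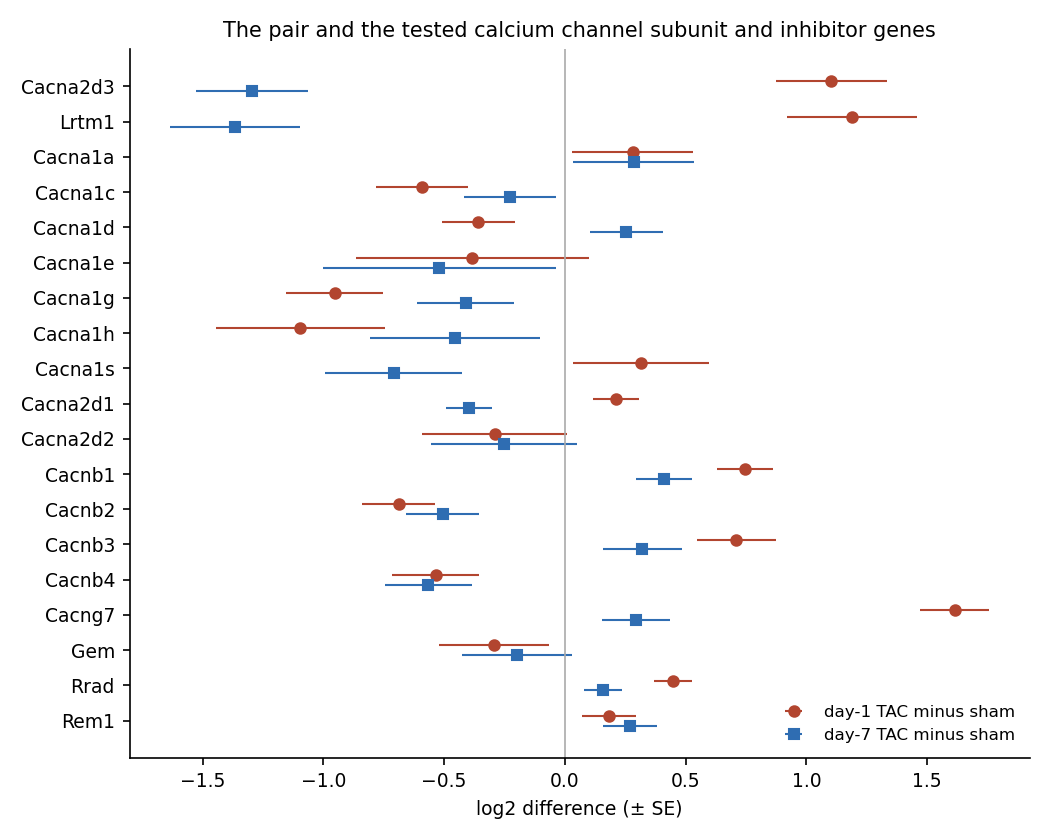
Log2 difference ± SE (limma, n = 3 libraries a group) of the pair and of each tested calcium channel subunit and RGK inhibitor gene, for day-1 TAC minus sham (circles) and day-7 TAC minus sham (squares), which share the sham libraries. Cacna2d3 and Lrtm1 lie at 1.10 and 1.19 in day-1 TAC and at -1.30 and -1.36 in day-7 TAC, and the beta subunit genes lie on the same side of 0 in both.

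Thrombospondins are secreted matrix proteins, some of which bind alpha2delta subunits in the nervous system. Of the 5 genes, all tested, 3 were higher and 1 lower in day-1 TAC than in sham, against 14.3% and 20.5% of all tested genes. Thbs1 rose by 1.86 (adjusted p = 0.001), Thbs4 by 2.31 (adjusted p = 0.00573) and Thbs3 by 0.38 (adjusted p = 0.0241), and Thbs2 fell, with a difference of -0.86 (adjusted p = 0.00112), all by limma. In day-7 TAC against sham, where 13.8% of all tested genes were higher, 2 were higher, Thbs1 by 1.23 (adjusted p = 0.00909) and Thbs3 by 0.56 (adjusted p = 0.00515). Thbs4 had 1.39 there (adjusted p = 0.0585). The Thbs3 call in day-1 TAC was lost in 3 of the 9 fits that left out 1 library. Between the TAC groups 1 of the 5 passed, against 16.7% of all tested genes, and it was Thbs2, at -0.61 (adjusted p = 0.0132). The median log2 difference of the list in that contrast was 0.23, against -0.03 over all tested genes.

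Among 17 genes of calcium release and uptake, 3 were higher and 5 lower in day-1 TAC than in sham, and 1 higher and 3 lower in day-7 TAC than in sham. Over all tested genes 34.8% and 28.9% were called in these contrasts. Of the 8 calls in day-1 TAC, those of Asph, Trdn, Atp2a2 and Ryr2 were lost in 8, 8, 7 and 6 of the 9 fits that left out 1 library, and all 4 were lost without sham replicate 2. Pln, which restrains the calcium pump of the sarcoplasmic reticulum, had -0.83 in day-1 TAC minus sham (adjusted p = 0.00248). Jsrp1, at 1 to 39 reads, had 3.10 in the same contrast (adjusted p = 0.00656 by limma). Its log2 level exceeded 0 in the day-1 TAC libraries alone, at 0.46 to 0.89, and was -4.26 to -1.32 in sham. Jsrp1 was thus open to testing only by being high in day-1 TAC, so its call was favoured in advance and rests on very few sham reads. In day-7 TAC minus sham, Hrc and Trdn, proteins of the calcium store, had -0.72 (adjusted p = 0.00123) and -0.52 (adjusted p = 0.00173), and Calm2, a calmodulin gene, had 0.39 (adjusted p = 0.00835). In the contrast of the TAC groups 2 of the 17 passed, a share near the 16.7% of all tested genes and no result about the list. They were Hrc, higher in day-1 TAC by 0.52 (adjusted p = 0.0116), and Camk2a, a calmodulin-dependent kinase, lower at -0.85 (adjusted p = 0.00881), all by limma. For the TAC mean minus sham the smallest p-values belonged to Trdn (-0.39), Hrc (-0.47) and Pln (-0.63). The median difference of the list between the TAC groups was 0.02, against -0.03 over all tested genes.

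For Lrtm1, the list set beside it held Slit ligands, Robo receptors, Fgfr1 and the Lrrtm family of leucine-rich repeat proteins. Of its 11 genes 9 were in the table and 7 were tested. Between the TAC groups 0 of the 7 passed, against 16.7% of all tested genes, so nothing is read from that count. Over all tested genes 34.8% were called in day-1 TAC minus sham and 28.9% in day-7 TAC minus sham. In day-1 TAC minus sham, Slit3 had -1.32 (adjusted p = 0.00452) and Slit2 -0.77 (adjusted p = 0.00734), and Fgfr1, a growth factor receptor, had 0.40 (adjusted p = 0.019), by limma. In day-7 TAC minus sham, Slit2 had -0.53 (adjusted p = 0.044) and Fgfr1 0.41 (adjusted p = 0.0201), calls that were lost in 5 and 4 of the 9 fits that left out 1 library. Slit3 had -0.60 there and -0.72 between the TAC groups, and passed in neither. Lrrtm3, the only Lrrtm gene tested, passed in no contrast.

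Of the marker lists, only that of macrophages had most of its tested members called in 1 direction between the TAC groups. Of 7 macrophage markers 5 were higher and 0 lower in day-1 TAC than in day-7 TAC, against 6.42% and 10.3% of all tested genes, and their summed level was 125 to 169 TMM-scaled CPM in day-1 TAC, 83.7 to 97.0 in day-7 TAC and 118 to 156 in sham libraries. Cd68 was higher by 1.10 (adjusted p = 0.0094) and Mrc1 by 0.93 (adjusted p = 0.0063), by limma. The table held 12 skeletal muscle markers, of which 4 were tested, and Acta1, skeletal actin that the stressed heart also makes, was higher in day-1 TAC than in day-7 TAC by 2.37 (adjusted p = 0.0031). Led by Acta1, the summed level of the list was 1121 to 2902 CPM in day-1 TAC, 284 to 337 in day-7 TAC and 42.3 to 79.8 in sham, so sham lay lowest and not between. The other 3 tested members did not pass in this contrast, at 0.43 for Tnni2 (23 to 100 reads), -0.79 for Tnnt3 (32 to 104 reads) and -0.33 for Myh8 (6 to 27 reads), and the 8 members that were not tested had 1 to 23 reads in any library.

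The table held 9 neuron markers, of which 3 were tested, and their summed level was 13.5 to 17.9 CPM in day-1 TAC, 19.0 to 21.2 in day-7 TAC and 18.2 to 20.98 in sham. Uchl1 was higher by 0.80 and Dbh, an enzyme of noradrenaline synthesis, lower at -1.14 in day-1 TAC minus day-7 TAC. Snap25 and Syt1 had 4 to 14 reads. Of 9 tested conduction system markers, Kcne1 (-1.46) and Tbx3 (-0.49) were lower in the same contrast, and both passed. The summed level of the conduction list was 209 to 259 CPM in day-1 TAC, 362 to 426 in day-7 TAC and 366 to 379 in sham. Kcne1 averaged 6.44 in day-1 TAC and 7.90 in day-7 TAC (log2 level) and leads this sum. The other 7 tested members did not pass, 5 of them higher and 2 lower in day-1 TAC than in day-7 TAC by value, and the list's median difference was 0.04. Of 10 ventricular markers Myh7, the fetal myosin heavy chain, was lower at -2.01 (adjusted p = 0.00071). Of 7 fibroblast markers Col1a1 was higher by 0.60, and the list summed to 3266 to 4994 CPM in day-1 TAC, 2941 to 3280 in day-7 TAC and 2218 to 2966 in sham. In the same contrast 0 of 12 atrial, 7 endothelial and 5 Schwann cell markers tested passed, against 16.7% of all tested genes. The part of these genes' cells in the difference of the pair was not tested.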

How the data were processed

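RNA of 9 left-ventricle samples was purified for mRNA and sequenced in single-end runs, per the labels' protocols. Per the submitters' processing notes, Trim Galore, STAR and edgeR were used on mm10, without stated versions. The read counter, its strand setting and its annotation have no source here. The authors deposited log2 values of TMM-normalised expression per gene, not counts. On the linear scale, each library's values were whole multiples of its lowest one (100.0% within 0.001), which gave the reads quoted. Of 16710 rows, 12 with 3 repeated symbols were left out. The replicate numbers of 2 sham columns that carry the same name only name them.

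Genes above 0 in at least 3 libraries were tested (13712) with limma 3.58.1 (R 4.3.3, intensity trend, two-sided) on the log2 values of all 9 libraries, at a Benjamini-Hochberg adjusted p under 0.05. Single values were tested by exact permutation. The fits were tested on simulated data. Positions come from GENCODE mouse release 21, in which 16401 symbols were found, and promoters from RefSeq.

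The genes and lists were chosen with earlier results of these data known. Named were the pair, its neighbours within 1 Mb, called members of the channel, RGK and thrombospondin lists, the 3 smallest p-values per contrast of the other lists and the 5 genes most and least like each gene by r; markers named beside the pair, Prom1 and other nested pairs were picked after their values were seen. Some genes that this rule names are not reported here. The alternatives were other filters, scalings and weights, a replicate block and leaving out each library.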

Additional observations from a re-analysis of the deposited data

Results flagged for a closer look

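Results stand here because the 2 TAC groups differed in their distance from sham. Values are log2 differences, day-1 TAC minus day-7 TAC. For 13 genes all day-1 TAC libraries lay on one side of all sham libraries and all day-7 TAC libraries on the other, and for these the difference was not tested here, because they were chosen for it or for their likeness to the pair. They are Cacna2d3 (2.40) and Lrtm1 (2.55), then Ckmt2 (1.08), Tmtc2 (1.40), Dmpk (0.74) and Ntpcr (0.35) among the genes most like them. Among the genes least like them they are Zbtb21 (-0.42), Scaf8 (-0.58), Nudcd3 (-0.21), Pdpk1 (-0.58), Virma (-0.33), Ecd (-0.19) and Dusp27 (-0.87). Over all tested genes, 79 had the pattern of the pair and 155 its reverse.

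For 9 genes of the lists and the locus the difference between the TAC groups passed limma's test with an adjusted p under 0.05 over all tested genes, as did 16.7% of those. Higher in day-1 TAC were Cacng7 (1.32), Cacna1s (1.02), Cacna2d1 (0.61), Hrc (0.52) and Rrad (0.29). Lower in day-1 TAC were Camk2a (-0.85), Thbs2 (-0.615), Cacna1d (-0.61) and Dcp1a (-0.32). Cacna2d1, Hrc, Cacng7, Camk2a and Thbs2 kept their calls in all 9 fits that left out 1 library, and the calls of Cacna1s, Cacna1d, Dcp1a and Rrad were lost in 3 to 5 of them.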

How the results depend on the processing

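Under other filters, scalings, no trend, voom weights (chosen after seeing the data) and fits of only the groups compared, the pair's differences kept their direction and the TAC mean against sham stayed past no threshold for either gene. Leaving out 1 library at a time, Cacna2d3 had -0.25 to 0.09 in the TAC mean minus sham (0.0049 without day-1 TAC replicate 1 and 0.0851 without sham replicate 1) and Lrtm1 -0.24 to 0.08 (0.0153 without day-1 TAC replicate 1, 0.0563 without day-7 TAC replicate 1 and 0.0825 without sham replicate 1), values near 0 that turned sign without passing a test. The log2 ratio difference, 0.0090, ran from -0.0132 to 0.0876. It was -0.0053, -0.0011 and -0.0130 without day-1 TAC replicates 1, 2 and 3, -0.0012 and -0.0132 without day-7 TAC replicates 2 and 3 and -0.0026 without sham replicate 1, and 0.0876 without day-7 TAC replicate 1; the cause was not tested. The correlation within groups ran from 0.921 to 0.996.

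Genes called for the TAC mean numbered 4972, and 3240 to 4685 with 1 library left out, the lowest without sham replicate 2. For day-1 TAC minus sham they numbered 4776, and 3259 to 4525. For day-7 TAC minus sham they numbered 3962, and 2594 to 4404, the lowest without day-7 TAC replicate 2. Between the TAC groups they numbered 2287, and 1261 to 2491, with 1290, 1261 and 1300 without day-7 TAC replicates 1, 2 and 3. Of these calls 38.5% were higher in day-1 TAC, against 48.5% after quantile normalisation, and for day-1 TAC minus sham 41.1%, against 50.7%. Of 75 calls of listed or neighbouring genes, 45 held under every alternative, 30 were lost under at least 1 and 0 turned sign.

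A replicate block over the 6 TAC libraries gave 1167 calls between the TAC groups. Deviations from the group means correlated at -0.224, -0.110 and -0.036 for same-numbered TAC libraries. For TAC libraries with different numbers they correlated at -0.167 to 0.228. No pairing by number was seen, but with 3 libraries a group this check cannot exclude one. The edgeR and DESeq2 alternatives were not run, since the deposited values are log2 values; voom stood in for them. Depth limits Cacna2d3 in day-7 TAC, at 56 to 83 reads.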
